A study of Homo sapiens with 12 samples.

Results

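The genes described here are 60 that serve protein folding, the stress response and outward transport at the endoplasmic reticulum (ER), taken by symbol from a chosen list and matched to rows among the 63677 gene identifiers counted in each library. All 60 were counted and passed the filter on low counts. They were followed in LNCaP, an established androgen-responsive prostate cancer line, in which a pair of TALENs (engineered nucleases) had been aimed at the CTG start codon of Bag-1L, the longest protein made from BAG1. The start codons of the shorter Bag-1 proteins lie outside the TALEN targets. The Bag-1L knockout (KO) came from single clones grown out by serial dilution and screened by western blot, and was compared with a TALEN control line, so that an effect of the knockout and a difference between clones cannot be told apart. Each line was grown in 3 ways. In FM (full medium) the cells stayed in medium with fetal bovine serum. In EtOH they were starved of hormone for 72 h in charcoal/dextran-treated serum and given the ethanol vehicle for 16 h. In DHT they were starved for the same time and given 10 nM dihydrotestosterone, an androgen, for 16 h. The 6 groups had 2 samples each, which the series calls biological duplicates, so that every SD and fitted error rests on this small number.

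Secreted and membrane proteins enter the ER through the Sec61 channel, lose their signal peptide to the signal peptidase, and are folded by lumenal chaperones such as BiP (HSPA5) and GRP94 (HSP90B1) and by disulphide isomerases. Misfolded chains are sent back to the cytosol by ER-associated degradation, and a load of unfolded protein is sensed by IRE1 (ERN1), PERK (EIF2AK3) and ATF6, which raise chaperone and degradation genes through XBP1, ATF4 and cleaved ATF6. Finished cargo leaves in COPII vesicles, and escaped residents return in COPI vesicles with the help of KDEL receptors. Prostate luminal cells are secretory, and their main secreted products are androgen-regulated.

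BAG1 itself had normalized counts (counts divided by a library size factor) of 2117 and 1968 for control cells and 1452 and 1576 for KO cells in FM, 1701.5 and 2703 for control and 1191 and 1103 for KO in EtOH, and 2199 and 2631 for control and 1075.5 and 1114 for KO in DHT, and its log2 difference between KO and control was -0.94 ± 0.18 (SE, adjusted p = 6.35e-06) in EtOH and -1.14 ± 0.18 (SE, adjusted p = 7.71e-09) in DHT. Gene counts do not separate the transcript ends or the protein products of BAG1, so this value does not measure Bag-1L itself. Gene counts per library totalled 20826843 to 30354666. The luminal markers KLK3, KLK2, TMPRSS2, FOLH1, HOXB13, KRT8 and KRT18 were all present, with KRT8 and KRT18 lower in KO under DHT (-0.78 and -0.73) and FOLH1 higher (1.05). Of the markers of other cells, KRT5, TP63, COL1A2, DCN and CHGA stayed at or below 9.0 normalized counts in every library and PTPRC did not pass the count filter, while KRT14 reached 30.7, VIM 34.3, SYP 78.7 and COL1A1 1013. VIM was lower in KO under DHT (-2.0), and the part of these markers in the member results was not tested. In bulk libraries fewer cells of a kind and less RNA per cell cannot be told apart. The control EtOH replicates stood apart from each other, the typical gene differing by 0.238 in log2 (median over the 11374 genes that averaged 100 normalized counts or more), against 0.076 to 0.172 in the other groups. Over the 59 members above that level the difference was 0.224 in control EtOH and 0.049 to 0.148 elsewhere, and the member calls that changed without 1 of its libraries are named beside each comparison that uses them.

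Taken as a single pool, the 60 members held 1.997% and 1.97% of all gene counts in the vehicle-treated control libraries and 2.98% and 3.03% in the DHT-treated ones. The KO libraries held 1.55% and 1.53% with vehicle and 2.06% and 1.97% with DHT. In full medium the shares were 2.26% and 2.25% for control against 1.96% and 1.97% for KO. The group means were 1.54% ± 0.012 (SD, n = 2) in KO EtOH and 3.004% ± 0.035 in control DHT, the ends of the range, and the KO libraries lay below the control libraries of the same culture in all 3 cultures. The 2 libraries of KO DHT, at 2.01% ± 0.061, were close to the 2 of control EtOH, at 1.98% ± 0.021, and these groups overlapped. The pool weighs members by abundance, so its share mostly follows the most abundant ones. In the control DHT libraries the 12 chaperones held 364441 of 783947 and 410591 of 832991 summed normalized counts. With 2 libraries against 2 an exact permutation test cannot go below a 2-sided p of 0.333, so no test is given for the share.

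**Figure D1:**
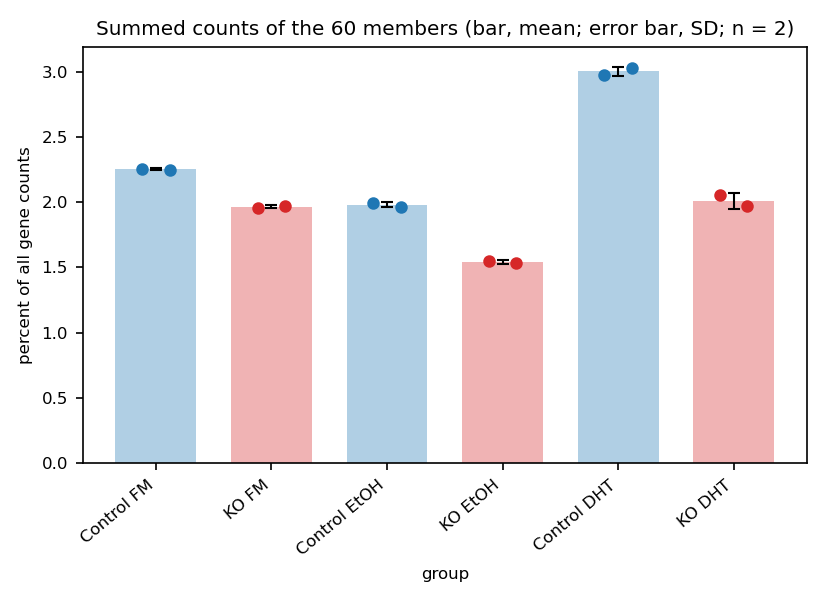
Percent of all gene counts held by the 60 members (vertical axis) in each group (horizontal axis); dots are libraries, bars are means and error bars are SD with n = 2, blue for TALEN control and red for Bag-1L KO. The share was highest in control DHT, at 3.004%, and lowest in KO EtOH, at 1.54%.

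The members ranged widely in abundance. Per kilobase of annotated exon, which allows genes to be set side by side, the mean over the 12 libraries was highest for CALR (calreticulin, a calcium-binding lectin chaperone) at 12217 normalized counts per kb, followed by PDIA4 at 9104, HSPA5 at 8635, HSP90B1 at 5512 and MANF at 4473. The scarcest expressed member was ERO1B, an oxidase that recharges disulphide isomerases, at 32.1 per kb. CREB3L1, a membrane-bound transcription factor, had between 3.3 and 13.6 normalized counts per library, which is too few for a test in 6 of the 8 comparisons. Its fold changes are not given singly, but counts, medians and correlations over sets of members that hold this gene include them. Exon lengths are unions over all annotated transcripts, so a gene with many rare exons is placed lower than its main transcript would be. On GRCh37 the genes that recur below lie in different places of the genome: HSPA5 (ENSG00000044574) at chr9:127997132-128003661 on the minus strand, HSP90B1 (ENSG00000166598) at chr12:104323885-104347709 on the plus strand, HERPUD1 (ENSG00000051108) at chr16:56966054-56978776 on the plus strand, ERN1 (ENSG00000178607) at chr17:62116440-62208179 on the minus strand, XBP1 (ENSG00000100219) at chr22:29190543-29196585 on the minus strand, SEC24D (ENSG00000150961) at chr4:119643978-119759838 on the minus strand and KDELR3 (ENSG00000100196) at chr22:38864083-38879452 on the plus strand.

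**Figure D2:**
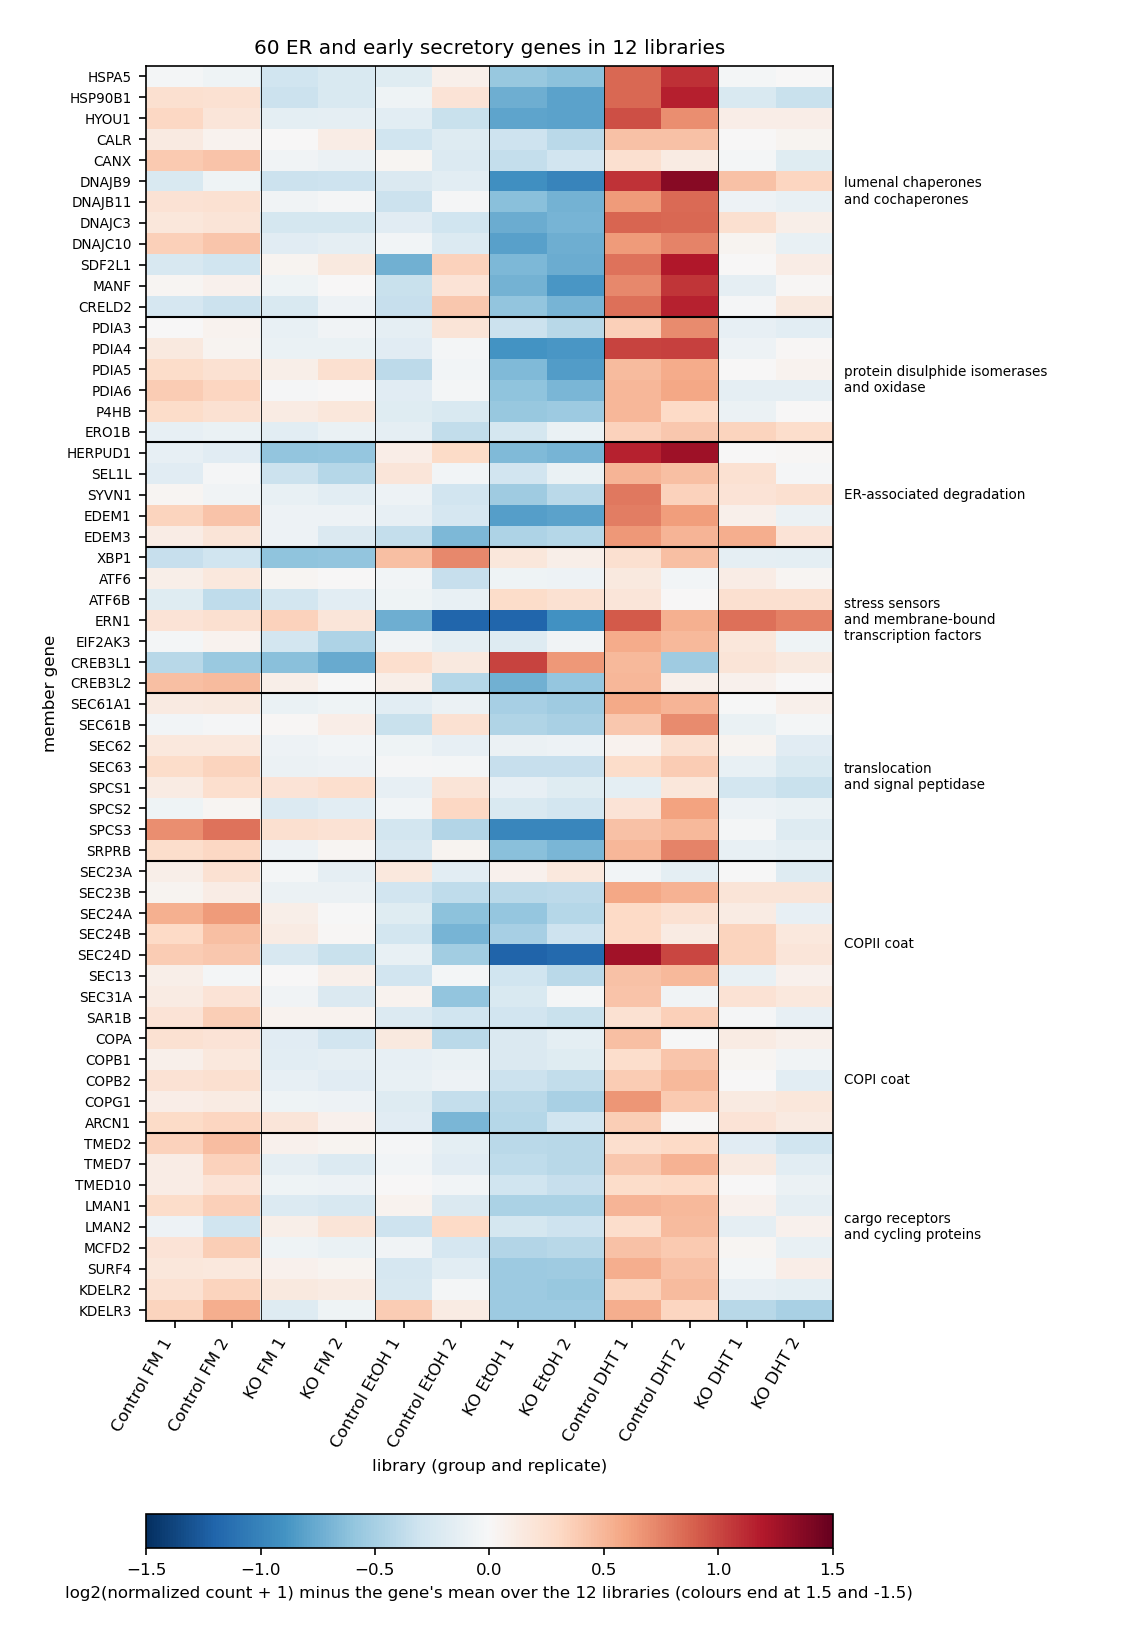
Level of each member (rows, in 8 role groups) in each of the 12 libraries (columns), as log2 of the normalized count plus 1 minus the gene's mean over the libraries; red is above and blue below that mean. Most rows are reddest in the 2 control DHT libraries and bluest in the 2 KO EtOH libraries, whereas XBP1, SEC23A, SPCS1 and CREB3L1, the last at very low counts, are among those that do not follow this pattern.

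The first question was how the members responded to androgen in the control line. With DHT, 34 of the 60 members rose past the threshold (adjusted p at most 0.05 and a fold change of at least 1.5) and none fell. Among all 17535 genes tested in this comparison, 6.04% rose and 5.37% fell. The median log2 fold change of the members was 0.62, against -0.02 over all genes tested, and 56 of the 60 values were above 0. Without a minimum fold change, 47 members had an adjusted p at or under 0.05, against 3491 of the 17535 genes tested. In KO, 20 members rose and none fell, against 4.43% and 3.24% of all genes tested, with a median of 0.48 for the members and -0.01 for all genes. Here 55 values were above 0, and 39 had an adjusted p at or under 0.05, against 2384 of the 17535 genes tested. Without control EtOH replicate 1 the control count was 37, as LMAN1, COPA, TMED7, SEC31A, SAR1B, MCFD2 and CREB3L2 passed and PDIA5, PDIA6, SEC61B and SEC13 did not. Without replicate 2 it was 31, as KDELR2, PDIA3 and LMAN2 passed and ERO1B, ARCN1, SEC24A, SEC24B, EIF2AK3 and P4HB did not.

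Of the lumenal chaperones and their cochaperones, 11 of 12 rose with DHT in control (median log2 fold change 0.95), and CANX, the membrane lectin calnexin, was the exception at 0.26 ± 0.11 (SE, adjusted p = 0.0673). HSPA5, which encodes the Hsp70 chaperone BiP, had normalized counts of 46509 and 55618.5 (vehicle) and 95879 and 112712 (DHT) in the control line, next to 35820.3 and 34485 (vehicle) and 51788 and 52987 (DHT) in the KO line. Its control DHT libraries stood above all the others, and its KO DHT libraries lay between the 2 control EtOH libraries. The log2 fold change with DHT was 1.03 ± 0.12 (SE, adjusted p = 1.57e-17) in control, a 2.04-fold rise, and 0.58 ± 0.12 (SE, adjusted p = 1.3e-05) in KO, which is just short of the 1.5-fold minimum and passed it without KO EtOH replicate 1 or KO DHT replicate 1 (0.60 and 0.59). HSP90B1, the lumenal Hsp90 paralogue GRP94, had counts of 63544 and 76969 with vehicle and 121359.9 and 149582 with DHT in control cells, and 40042 and 38290.1 with vehicle and 56847 and 52902 with DHT in KO cells. All 4 KO libraries lay below all 4 control libraries of these cultures. Its log2 fold change was 0.95 ± 0.13 (SE, adjusted p = 2.19e-12) in control and 0.49 ± 0.13 (SE, adjusted p = 0.00163) in KO, the latter again under 1.5-fold.

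DNAJB9, a BiP cochaperone that is a classical target of spliced XBP1, had the largest rise of the chaperones, with counts of 1043 and 1082 (vehicle) and 2571 and 3109 (DHT) in the control line, next to 639.8 and 606 (vehicle) and 1635 and 1511 (DHT) in the KO line. The DHT libraries of each line were well separated from its EtOH libraries, and the log2 fold change was 1.42 ± 0.13 (SE, adjusted p = 8.06e-28) in control and 1.34 ± 0.13 (SE, adjusted p = 3.37e-23) in KO. SDF2L1, a cofactor of the BiP and DNAJB11 complex, had counts of 860.3 and 1802 with vehicle and 2498 and 3252 with DHT in control cells, and 886 and 849 with vehicle and 1426 and 1536 with DHT in KO cells. The control EtOH libraries differed by more than 2-fold, and the KO rise of 0.77 ± 0.23 (SE, adjusted p = 0.00961) lost its call when any of the 4 libraries of that comparison was left out (adjusted p 0.0531 to 0.139). In control its rise was 1.11 ± 0.23 (SE, adjusted p = 2.3e-05), with 0.67 without control EtOH replicate 1 and 1.74 without replicate 2. MANF and CRELD2, small secreted or lumenal proteins released on ER stress, rose by 0.95 and 0.92 in control and by 0.74 and 0.71 in KO on the log2 scale, the last not past the threshold without KO EtOH replicate 2 or KO DHT replicate 2 (adjusted p = 0.0608 and 0.0961). HYOU1, a nucleotide exchange factor for BiP, rose in both lines (1.08 in control, 0.90 in KO), as did DNAJC3, a BiP cochaperone that also restrains PERK (1.1 and 0.88). DNAJB11 rose by 0.91 in control and had 0.58 ± 0.12 (SE, adjusted p = 5.52e-05) in KO, past the threshold without KO EtOH replicate 1 or KO DHT replicate 2 (0.61 and 0.60). The reductase DNAJC10 rose by 0.74 in KO.

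Of the 6 disulphide isomerase and oxidase genes, 5 rose with DHT in control and 2, PDIA4 and PDIA5, rose in KO. PDIA4, a large disulphide isomerase, had counts of 24676 and 27188 (vehicle) and 56269 and 56419 (DHT) in the control line, next to 14941 and 15167.5 (vehicle) and 26422 and 28041 (DHT) in the KO line. The pairs of replicates were tight, and the KO DHT libraries lay next to those of control EtOH. Its log2 fold change was 1.12 ± 0.09 (SE, adjusted p = 7.22e-33) in control and 0.86 ± 0.09 (SE, adjusted p = 4.29e-19) in KO. ERO1B had counts of 442.5 and 375 with vehicle and 615 and 644 with DHT in control cells, and 405 and 453 with vehicle and 612 and 581 with DHT in KO cells, and rose by 0.62 ± 0.14 (SE, adjusted p = 0.000104) in control but not past the fold minimum in KO (0.48 ± 0.14 (SE, adjusted p = 0.00689)). The lines overlapped in EtOH and lay close together in DHT for this gene, and its control call was lost without control EtOH replicate 2 (0.51). PDIA5 rose by 0.78 in KO.

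Among the ER-associated degradation genes, 4 of 5 rose in each line. HERPUD1, a membrane scaffold of the degradation complex, had counts of 5231 and 5991 (vehicle) and 10847 and 11807 (DHT) in the control line, next to 3102 and 3012 (vehicle) and 4901 and 4940.3 (DHT) in the KO line. In control the DHT libraries were well above those in EtOH, and the KO DHT libraries stayed below both control EtOH libraries. The log2 fold change was 1.01 ± 0.10 (SE, adjusted p = 3.37e-22) in control and 0.69 ± 0.10 (SE, adjusted p = 5.72e-10) in KO. EDEM3 and EDEM1, mannosidases or lectins that mark misfolded glycoproteins, rose by 1.09 and 0.89 in control and 0.83 and 0.81 in KO. The ubiquitin ligase SYVN1 rose by 0.69 in KO, and its adaptor SEL1L did not pass in either line (0.40 in control and 0.30 in KO).

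The sensors and membrane-bound transcription factors moved unevenly, with 2 of 7 past the threshold in each line. ERN1, which encodes the sensor kinase and nuclease IRE1, had the largest rise of any member, with counts of 713 and 521 with vehicle and 2250.3 and 1725 with DHT in control cells, and 521 and 633 with vehicle and 2106 and 2008 with DHT in KO cells. The lines overlapped in both treatments, and the log2 fold change was 1.69 ± 0.17 (SE, adjusted p = 7.52e-22) in control and 1.83 ± 0.17 (SE, adjusted p = 1.76e-25) in KO. XBP1, the transcription factor whose mRNA is spliced by IRE1, went the other way in sign. Its counts were 9065 and 10999 (vehicle) and 7824 and 9108 (DHT) in the control line, next to 7464 and 7076 (vehicle) and 6065 and 6017 (DHT) in the KO line, and its log2 fold change was -0.25 ± 0.12 (SE, adjusted p = 0.136) in control and -0.27 ± 0.12 (SE, adjusted p = 0.127) in KO, neither past the threshold. Gene counts do not separate spliced from unspliced XBP1, so IRE1 activity was not measured. EIF2AK3, the sensor kinase PERK, rose in control (0.62 ± 0.13 (SE, adjusted p = 2.47e-05)) and had 0.18 ± 0.13 (SE, adjusted p = 0.471) in KO, and its control value was just under 1.5-fold without control EtOH replicate 2 (0.57) or control DHT replicate 1 (0.58). CREB3L2, a membrane-bound activator of secretory pathway genes, had counts of 2211 and 1544 with vehicle and 2951 and 2194 with DHT in control cells, and 1263 and 1390.0 with vehicle and 2172 and 2088 with DHT in KO cells. It was the only member past the threshold with DHT in KO (0.68 ± 0.17 (SE, adjusted p = 0.000829)) and not in control (0.45 ± 0.17 (SE, adjusted p = 0.0368)), and it passed in control too when control EtOH replicate 1 or control DHT replicate 2 was left out. ATF6 and ATF6B had 0.24 and 0.18 in control, under the threshold.

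In the entry step, 4 of the 8 translocation and signal peptidase genes rose with DHT in control and 1 in KO. SPCS3, a signal peptidase subunit, had counts of 1611 and 1439 (vehicle) and 2661 and 2751 (DHT) in the control line, next to 995 and 992 (vehicle) and 1924 and 1709 (DHT) in the KO line and rose by 0.87 in KO, with 0.83 in control. Its fellow subunits SPCS1 and SPCS2 did not pass in either line, with -0.03 and 0.27 in control. Of the 8 COPII coat genes, which form the vesicles that leave the ER, 5 rose in control and 3 in KO. SEC24D, a cargo-binding coat subunit, had counts of 1559 and 1179.7 with vehicle and 4053 and 3389 with DHT in control cells, and 732.5 and 750.0 with vehicle and 2123.5 and 1923 with DHT in KO cells. Every DHT library exceeded every EtOH library, and the KO libraries lay below those of control in both treatments. The log2 fold change was 1.44 ± 0.14 (SE, adjusted p = 2.54e-22) in control and 1.45 ± 0.15 (SE, adjusted p = 1.72e-21) in KO. SEC23B and SEC24B, 2 further coat subunits, rose by 0.59 and 0.65 in KO, whereas SEC23A, a paralogue of SEC23B, had -0.11 in control and -0.22 in KO. The KO call of SEC24B was lost without KO EtOH replicate 1 or KO DHT replicate 1, where its values were 0.56.

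Of the 5 COPI coat genes, COPG1 and ARCN1 rose in control and COPG1 in KO (0.59 ± 0.11 (SE, adjusted p = 3.96e-06); 0.55 and 0.57, under 1.5-fold, without KO EtOH replicate 2 and without KO DHT replicate 2). The ARCN1 call was lost without control EtOH replicate 2 or control DHT replicate 1 (0.37 and 0.42). Of the 9 cargo receptors and cycling proteins only SURF4 rose in control and none in KO, although all 9 had values above 0 in both lines (0.18 to 0.70 in control and 0.10 to 0.58 in KO). The control count of this group depended on single libraries: LMAN1, TMED7 and MCFD2 passed without control EtOH replicate 1, LMAN2 and KDELR2 without control EtOH replicate 2, TMED7 and KDELR2 without control DHT replicate 1, and LMAN1 and MCFD2 without control DHT replicate 2. In KO SURF4 passed without KO EtOH replicate 2 (0.59) or KO DHT replicate 1 (0.64). The KDEL receptors, which retrieve chaperones that carry a KDEL tail, were read as a pair. KDELR2 had counts of 7287 and 8432 (vehicle) and 10870.1 and 11947 (DHT) in the control line, next to 5883 and 5786 (vehicle) and 7917 and 7733 (DHT) in the KO line, with log2 fold changes of 0.54 ± 0.10 (SE, adjusted p = 4.78e-06) in control and 0.42 ± 0.11 (SE, adjusted p = 0.000843) in KO, both under 1.5-fold, and in control it passed without control EtOH replicate 2 (0.65) or control DHT replicate 1 (0.61). KDELR3 had counts of 735 and 611 with vehicle and 819 and 704 with DHT in control cells, and 384 and 384 with vehicle and 420.3 and 401 with DHT in KO cells, and the DHT and EtOH libraries of each line lay close together (0.18 ± 0.15 (SE, adjusted p = 0.472) in control and 0.10 ± 0.15 (SE, adjusted p = 0.819) in KO).

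**Figure D3:**
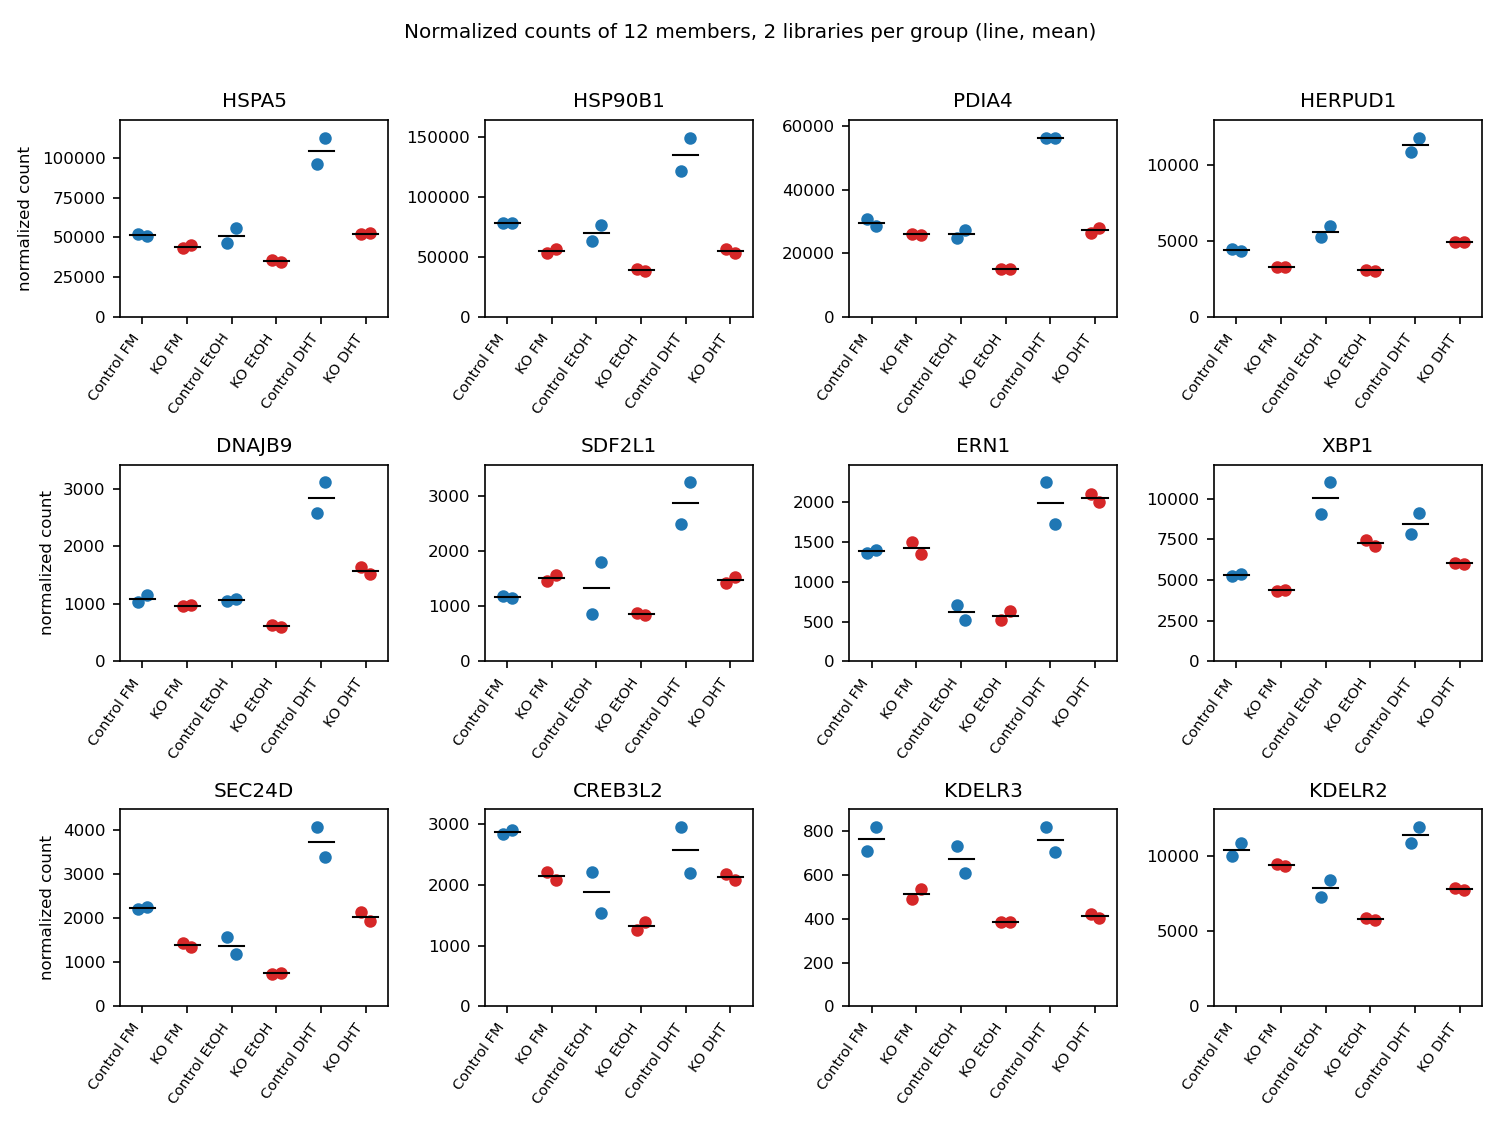
Normalized counts (vertical axes, from 0) of 12 members in the 6 groups; each dot is a library, blue for TALEN control and red for Bag-1L KO, and the line is the mean. HSPA5, HSP90B1, PDIA4, HERPUD1 and DNAJB9 peak in control DHT, ERN1 rises with DHT to like levels in both lines, and XBP1 is highest in control EtOH.

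Next, the DHT responses of the lines were set against each other. The 2 responses share no samples. Of the members, 19 rose past the threshold in both lines, 15 in control and not in KO, and 1 in KO and not in control. Of all genes tested, 6.04% rose in control and 4.43% in KO, and their split between the lines was not counted. Of the 15, 13 had an adjusted p at or under 0.05 in KO but a fold change under 1.5, so that passing in control alone does not show a difference between the lines. Across the 60 members, Pearson's r between the 2 log2 fold changes was 0.935 and Spearman's rho was 0.921, against 0.76 and 0.687 over the 17535 genes tested, as a description across genes, which are not independent replicates. The difference itself was tested as an interaction. DESeq2 called 0 members in either direction, against 0.223% of the 13478 genes tested higher in KO and 0.185% lower, and edgeR called 0 as well. The smallest adjusted p of a member was 0.413, and 9 members had an unadjusted p under 0.05, all 9 with a smaller response in KO. Of the 13478 genes tested, 579 had an unadjusted p under 0.05 in either direction. The difference was below 0 in 55 of the 60 members and in 6864 of the 13478 genes tested. The median was -0.14 on the log2 scale for the members, against -0.004 for all genes tested.

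Named members showed how wide these differences were. The KO minus control difference in response was -0.46 for HSPA5 (95% CI -0.77 to -0.14, adjusted p = 0.413) and -0.46 for HSP90B1 (95% CI -0.81 to -0.11, adjusted p = 0.623), both in log2 units. EIF2AK3 had a difference of -0.44 (95% CI -0.80 to -0.08) and HERPUD1 one of -0.33 (95% CI -0.61 to -0.05). For genes near the diagonal the interval was as informative. The difference was 0.01 for SEC24D (95% CI -0.39 to 0.41), -0.08 for DNAJB9 (95% CI -0.43 to 0.27) and 0.15 for ERN1 (95% CI -0.32 to 0.61). The other members followed in every comparison had differences of SDF2L1 (-0.34), PDIA4 (-0.26), ERO1B (-0.15), KDELR2 (-0.11), KDELR3 (-0.08), XBP1 (-0.02) and CREB3L2 (0.23). The count depended on 1 library: without control EtOH replicate 2, HSPA5 (-0.59, adjusted p = 0.00439), SDF2L1 (-0.97, adjusted p = 0.00022), HSP90B1 (-0.60, adjusted p = 0.0127) and CRELD2 (-0.63, adjusted p = 0.039) passed the threshold, all with a smaller response in KO, while 1.37% of all genes tested passed in that fit. In the other 7 fits that left out a library, 0 members passed. Without control EtOH replicate 1 the HSPA5 difference was -0.33 (adjusted p = 0.499) and that of SDF2L1 turned to 0.10 (adjusted p = 0.988), so that the sign of the SDF2L1 value rests on which control EtOH library is kept.

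**Figure D4:**
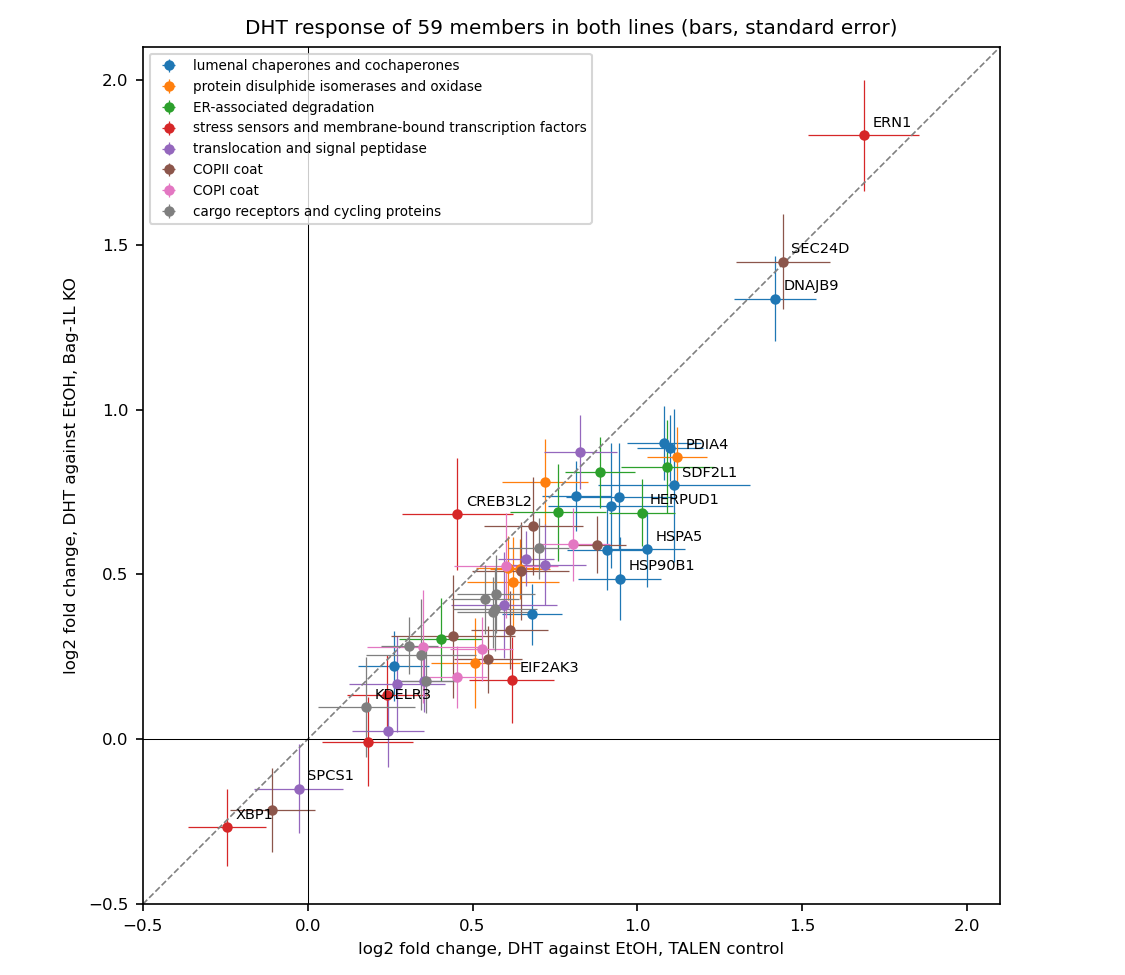
Log2 fold change with DHT in TALEN control (horizontal) and in Bag-1L KO (vertical) for the 59 members with testable counts, coloured by role, with standard errors; the dashed line marks equal responses. Chaperones such as HSPA5 and HSP90B1 lie below the line, with 1.03 and 0.95 in control and 0.58 and 0.49 in KO, and ERN1, SEC24D and DNAJB9 lie near it at the upper end.

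Then KO was compared with control at each culture condition. In EtOH, 11 members were lower in KO past the threshold and 0 higher, against 2.31% of the 16521 genes tested lower and 2.8% higher. The members had a median log2 fold change of -0.32, against -0.02 for all genes tested. Of the members 29 had an adjusted p at or under 0.05, against 1620 of the 16521 genes tested. In DHT, 19 members were lower and 0 higher, against 3.32% and 4.66% of the 16014 genes tested. The median was -0.48 for the members and -0.02 for all genes. Of the members 42 had an adjusted p at or under 0.05, against 2620 of the 16014 genes tested. In FM, SEC24D alone was lower and 0 members were higher, against 2.6% and 5.41% of the 15000 genes tested. The median in FM was -0.24 for the members and -0.01 for all genes. Without a minimum fold, 23 members had an adjusted p at or under 0.05, against 2776 of the 15000 genes tested. The FM count was 5 without control FM replicate 1, where LMAN1, KDELR3, SEC24A and SPCS3 passed as well, 2 without KO FM replicate 1 (with SEC24A) and 2 without KO FM replicate 2 (with KDELR3), all lower in KO. The 3 comparisons share no samples, and 43 of the 60 members had a value below 0 in all 3. The share of all genes below 0 in all 3 was not counted.

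Of the 12 chaperones, 5 were lower in EtOH (median -0.59) 10 in DHT (median -0.85) and 0 in FM (median -0.23), the exceptions in DHT being CALR (-0.42 ± 0.09 (SE, adjusted p = 0.00011)) and CANX (-0.28 ± 0.11 (SE, adjusted p = 0.0556)). HSP90B1 was lower by -0.84 ± 0.13 (SE, adjusted p = 2.78e-09) in EtOH and -1.30 ± 0.13 (SE, adjusted p = 1.25e-22) in DHT, the latter a 2.47-fold difference and the largest of any member. HSPA5 was lower by -0.99 ± 0.12 (SE, adjusted p = 9.22e-16) in DHT, and in EtOH it had -0.54 ± 0.12 (SE, adjusted p = 0.000103), under 1.5-fold, with -0.66 (adjusted p = 2.77e-08) and past the threshold without control EtOH replicate 1 and -0.40 (adjusted p = 0.00343) without replicate 2. In full medium HSPA5 counts were 51811 and 50781 for control cells and 43017 and 45222 for KO cells, a log2 difference of -0.22 ± 0.12 (SE, adjusted p = 0.176), and HSP90B1 counts were 78421 and 77965 for control cells and 53169.9 and 56912 for KO cells, a difference of -0.51 ± 0.13 (SE, adjusted p = 0.00112). Both genes were thus lower in both KO libraries of FM than in either control library, with neither past the threshold.

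DNAJB9 was lower in KO by -0.77 in EtOH and -0.85 in DHT, DNAJC10 by -0.65 and -0.73, MANF by -0.75 and -0.96, and CRELD2 by -0.72 and -0.93. Without control EtOH replicate 2 the EtOH values of MANF and CRELD2 were -0.46 and -0.30 and no longer passed, and CRELD2 was also lost without KO EtOH replicate 2 (adjusted p = 0.0889). Without control EtOH replicate 1 the EtOH values of DNAJC10, the degradation gene EDEM1 and the signal peptidase subunit SPCS3 were -0.56, -0.56 and -0.54, just under 1.5-fold. HSPA5 (-0.66), SDF2L1 (-1.06), DNAJB11 (-0.65), PDIA5 (-0.71), PDIA6 (-0.61), XBP1 (-0.60), SEC61B (-0.70), SRPRB (-0.70) and LMAN2 (-0.59) were past it. A larger share of all genes passed in this fit than over all libraries, so these gains do not describe the members alone. Without replicate 2, HYOU1 (-0.64) and CREB3L2 (-0.74) were past 1.5-fold. In DHT, SDF2L1 (-0.96), DNAJB11 (-0.84), HYOU1 (-0.74) and DNAJC3 (-0.70) were lower too, and SDF2L1 was not past the threshold without control DHT replicate 2 (-0.75, adjusted p = 0.0635). SDF2L1 in EtOH had -0.62 ± 0.23 (SE, adjusted p = 0.0709), which was -1.06 (adjusted p = 1.28e-10) without control EtOH replicate 1 and 0.01 (adjusted p = 0.978) without replicate 2, and in FM its sign was the opposite (0.37 ± 0.23 (SE, adjusted p = 0.268)).

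In the redox group PDIA4 differed by -0.79 ± 0.09 (SE, adjusted p = 2.08e-15) in EtOH and -1.05 ± 0.09 (SE, adjusted p = 3.11e-28) in DHT, and by -0.20 ± 0.09 (SE, adjusted p = 0.115) in FM, where it did not pass. PDIA3 and PDIA6 were lower in DHT (-0.68 and -0.67), the first not without control DHT replicate 2 (-0.49). ERO1B showed no difference past the threshold, with 0.07 in EtOH (95% CI -0.21 to 0.35), -0.08 in DHT (95% CI -0.34 to 0.19) and -0.01 in FM (95% CI -0.29 to 0.26). Of the degradation genes, HERPUD1 was lower by -0.88 ± 0.10 (SE, adjusted p = 1.79e-15) in EtOH and -1.20 ± 0.10 (SE, adjusted p = 1.94e-30) in DHT, and EDEM1 by -0.63 and -0.70. In FM the HERPUD1 counts were 4485 and 4332 for control cells and 3251 and 3259.6 for KO cells, with a log2 difference of -0.44 ± 0.10 (SE, adjusted p = 0.00042), under 1.5-fold. EDEM3 had 0.06 in EtOH and -0.20 in DHT.

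None of the 7 sensors and transcription factors passed in any of the 3 KO comparisons over all libraries. With 1 library left out, XBP1 passed in EtOH without control EtOH replicate 1 (-0.60) and in DHT without control DHT replicate 1 (-0.59), CREB3L2 in EtOH without control EtOH replicate 2 (-0.74), and EIF2AK3 in DHT without KO DHT replicate 1 (-0.59), all lower in KO. XBP1 had -0.47 ± 0.12 (SE, adjusted p = 0.00173) in EtOH, -0.49 ± 0.12 (SE, adjusted p = 0.000611) in DHT and -0.28 ± 0.12 (SE, adjusted p = 0.0766) in FM, with every KO library below every control library within each culture. ERN1 had -0.10, 0.05 and 0.05 in the same order, and CREB3L2 -0.50, -0.27 and -0.42. In the translocation group SPCS3 was lower in EtOH (-0.62 ± 0.11 (SE, adjusted p = 2.63e-06)), and SRPRB, the membrane subunit of the signal recognition particle receptor, was lower in DHT (-0.76 ± 0.12 (SE, adjusted p = 3.55e-08)) with SEC61B, a subunit of the channel (-0.63 ± 0.16 (SE, adjusted p = 0.00123)). The SEC61B call was lost without control DHT replicate 2 (adjusted p = 0.103).

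Of the coat genes, SEC24D was the single COPII gene past the threshold, by -0.89 ± 0.15 (SE, adjusted p = 1.26e-07) in EtOH, -0.88 ± 0.14 (SE, adjusted p = 3.01e-08) in DHT and -0.68 ± 0.14 (SE, adjusted p = 6.53e-05) in FM, and no COPI gene passed in any culture, apart from COPB2 in DHT without KO DHT replicate 1 (-0.59). The FM counts of SEC24D were 2205 and 2243 for control cells and 1429 and 1343 for KO cells, with no overlap. Among cargo receptors KDELR3 was lower by -0.81 ± 0.15 (SE, adjusted p = 4.79e-06) in EtOH and -0.89 ± 0.15 (SE, adjusted p = 1.16e-07) in DHT. In FM, with counts of 710.1 and 819 for control cells and 491.5 and 536 for KO cells, it had -0.58 ± 0.15 (SE, adjusted p = 0.00175), just under 1.5-fold, and it passed there without control FM replicate 1 or KO FM replicate 2. KDELR2 had -0.43, -0.54 and -0.15 in EtOH, DHT and FM, and passed in DHT without control DHT replicate 1 (-0.61). In all, 10 members were lower in KO past the threshold in both EtOH and DHT, and SEC24D was the only 1 in all 3 cultures. The matching joint share over all genes was not counted, so these counts are descriptions only.

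**Figure D5:**
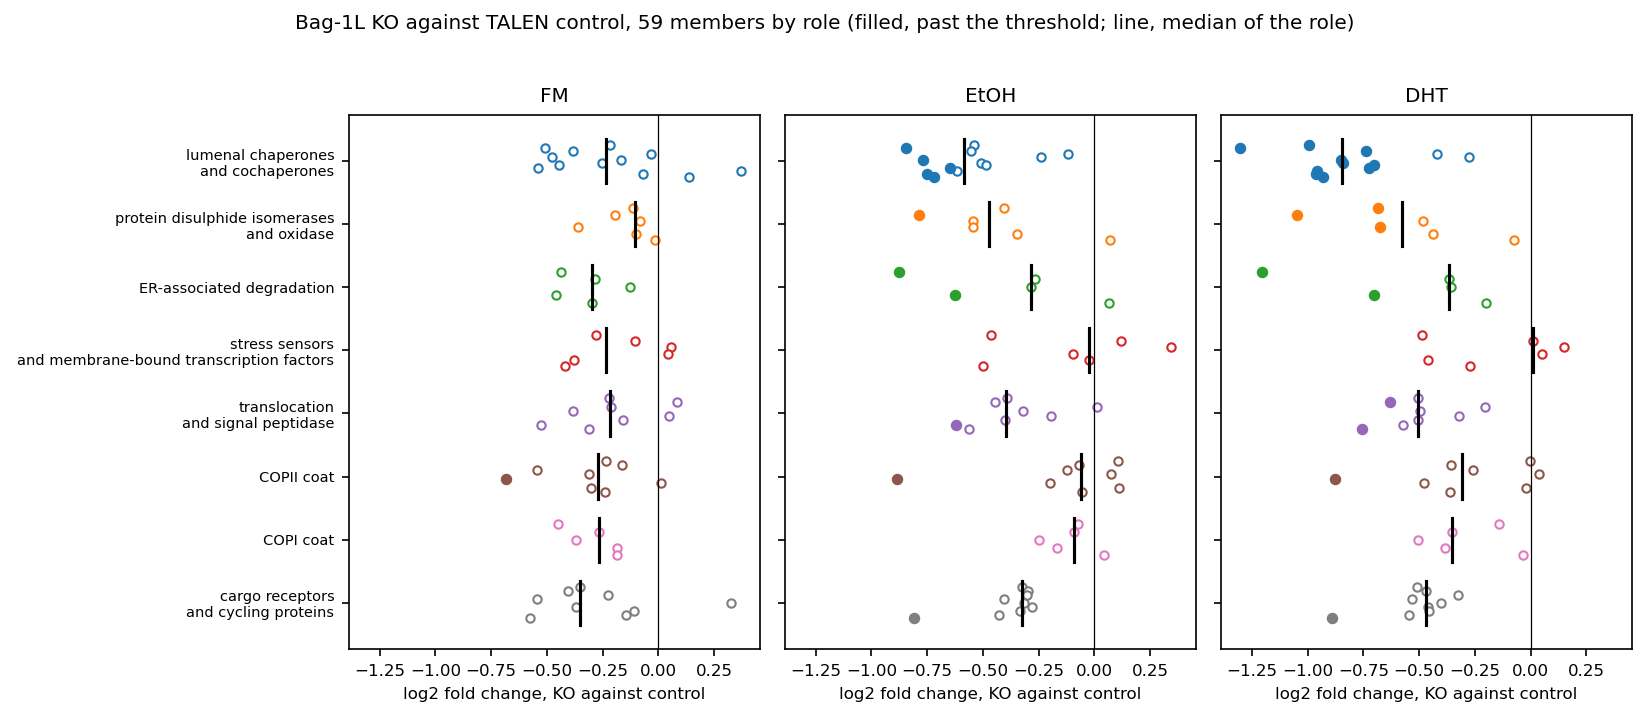
Log2 fold change of KO against control (horizontal axes) for 59 members in FM, EtOH and DHT, in rows by role. Filled points passed the threshold and the line is the median of the role, which for the sensors includes CREB3L1, not drawn as a point. Chaperones lie lowest in DHT, with a median of -0.85, and the COPII and COPI coats and the sensors lie nearest to 0 in EtOH.

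The levels in KO cells with DHT were also set beside those in vehicle-treated control cells. The KO DHT mean was above the control EtOH mean for 40 of the 60, with a median ratio of 1.07. For HSPA5 this ratio was 1.03, for PDIA4 1.05, for HERPUD1 0.88, for HSP90B1 0.78, for DNAJB9 1.48 and for ERN1 3.33. These ratios are descriptions with no test.

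Full medium carries serum hormones and growth factors, and FM was compared with EtOH in each line. In control, 8 members were higher in FM and 1 lower, against 9.81% and 11.5% of the 18549 genes tested. Of the members 13.3% were higher, near the background, and 1.67% were lower, below it. The median was 0.33. The 8 were ERN1 (1.16 ± 0.17 (SE, adjusted p = 1.09e-10)), SPCS3 (1.12 ± 0.11 (SE, adjusted p = 1.43e-22)) and SEC24A (0.97), SEC24B (0.85), ARCN1 (0.71), SEC24D (0.70), EDEM3 (0.66) and CREB3L2 (0.61). The coat genes SEC24A, SEC24B, SEC24D and ARCN1 were among these, and 0 of the 12 chaperones passed, with HSPA5 at 0.01, HSP90B1 at 0.15, SDF2L1 at -0.18, DNAJB9 at 0.04 and HERPUD1, the degradation scaffold, at -0.35. Without control EtOH replicate 1, DNAJC10 (0.59) and CANX (0.61) were higher by more than 1.5-fold, and SDF2L1 (-0.62) and CRELD2 (-0.69) lower. COPA (0.63), EDEM1 (0.63), SEC31A (0.76) and SAR1B (0.60) were also higher past that fold. A larger share of all genes passed in this fit than over all libraries, so these gains do not describe the members alone. Without replicate 2, PDIA5 was past 1.5-fold (0.65). ARCN1 (0.47), EDEM3 (0.515), SEC24D (0.51) and CREB3L2 (0.38) fell under it, and SDF2L1 had 0.45. XBP1 was the member lower in FM, by -0.91 ± 0.12 (SE, adjusted p = 1.99e-13), with counts of 5246 and 5399 in control FM and 9065 and 10999 in control EtOH.

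In KO, 18 members were higher in FM and 1 lower, against 9.61% and 9.68% of the 18549 genes tested, with a median of 0.41. ERN1 (1.30 ± 0.17 (SE, adjusted p = 3.2e-13)) and SPCS3 (1.21 ± 0.11 (SE, adjusted p = 1.92e-25)) were again highest. Of the chaperones, 6 were higher: SDF2L1 (0.81), MANF (0.77), HYOU1 (0.66), DNAJB9 (0.64), DNAJB11 (0.64) and DNAJC10 (0.62). Of the redox genes, 4 were higher: PDIA5 (0.92), PDIA4 (0.78), P4HB (0.71) and PDIA6 (0.64). The others were SEC24D (0.90), EDEM1 (0.73), CREB3L2 (0.69), KDELR2 (0.69), SRPRB (0.63) and SURF4 (0.59). HSPA5 (0.33 ± 0.12 (SE, adjusted p = 0.0165)), HSP90B1 (0.49 ± 0.13 (SE, adjusted p = 0.000586)) and KDELR3 (0.42 ± 0.15 (SE, adjusted p = 0.0223)) stayed under 1.5-fold, and HERPUD1 and ERO1B were at 0.09 and 0.05. XBP1 was again the lower member, by -0.73 ± 0.12 (SE, adjusted p = 7.93e-09), with counts of 4358.5 and 4403 in KO FM and 7464 and 7076 in KO EtOH. Leaving out a library took SURF4, SRPRB or DNAJC10 just under 1.5-fold (0.58 in each case). The difference between the lines in this contrast was not tested.

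Over the 8 comparisons 39 members passed at least 1 threshold and 21 passed none in the fits over all libraries. The share of all genes that passed at least 1 was not counted, so these counts are descriptions only. The 21 were CANX, the degradation adaptor SEL1L, the sensors ATF6 and ATF6B, CREB3L1, SEC62, SEC63, SPCS1 and SPCS2 of the entry step, SEC23A, SEC31A and SAR1B of COPII, COPA, COPB1 and COPB2 of COPI, and the cargo receptors LMAN1, LMAN2, MCFD2, TMED2, TMED7 and TMED10. The annotation has SPCS1, COPB2 and PDIA6 sharing at least 20% of their exon bases with a gene on the other strand, and TMED7 with a gene on the same strand, so their counts are less certain.

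Since many members moved together, their promoters were read for the elements known to bind the unfolded protein response factors. The RefSeq table on GRCh38.p14, another build than the GRCh37 of the counts and used for sequence only, had windows for 56 of the 60 members; PDIA3, SPCS1, SEC24D and KDELR2 had no entry. The last 250 bases before the start were searched on both strands for the ER stress response element ERSE (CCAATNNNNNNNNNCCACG), for ERSE-II (ATTGGNCCACG) and for the core of the unfolded protein response element (TGACGTGG). ERSE was found in 8 members, 14.3% of 56, against 0.092% of 27305 genes. ERSE-II was found in 3 members, 5.36% against 0.066%, and the TGACGTGG core in 7, 12.5% against 0.78%. At least 1 of these was found in 17 members, 30.4%, against 0.93% of all genes with a window, and in 8 of the 12 chaperones. These genes include textbook cases from which such elements were first defined, and a match is a description of letters, not of binding. Those shown are the 8 chaperones with an element, the degradation scaffold HERPUD1, XBP1, PDIA6 and KDELR3, with the match in capitals and 5′ to 3′ along the gene's strand.
HSPA5: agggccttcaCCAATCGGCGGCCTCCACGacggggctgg
HSP90B1: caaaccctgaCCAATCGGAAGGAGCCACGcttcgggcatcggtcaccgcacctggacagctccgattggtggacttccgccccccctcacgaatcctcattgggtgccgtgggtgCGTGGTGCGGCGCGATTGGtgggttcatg
HYOU1: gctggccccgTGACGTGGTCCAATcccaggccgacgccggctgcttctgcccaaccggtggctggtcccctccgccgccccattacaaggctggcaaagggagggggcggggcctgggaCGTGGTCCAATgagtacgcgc
CALR: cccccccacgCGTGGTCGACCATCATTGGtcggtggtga
CANX: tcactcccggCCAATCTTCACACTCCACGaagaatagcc
CRELD2: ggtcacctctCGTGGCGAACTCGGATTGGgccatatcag
PDIA6: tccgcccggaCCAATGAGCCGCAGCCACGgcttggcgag
XBP1: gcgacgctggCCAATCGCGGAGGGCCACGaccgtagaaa
SDF2L1: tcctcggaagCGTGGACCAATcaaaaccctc
HERPUD1: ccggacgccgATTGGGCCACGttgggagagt
DNAJC10: gcgcacaccgCCACGTCAacctaaacct
KDELR3: gccgccctggCCACGTCAccgcccggcc

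These stretches lie, in the same order, at chr9:125241381-125241419 on the minus strand (HSPA5), chr12:103930206-103930349 on the plus strand (HSP90B1), chr11:119057264-119057403 on the minus strand (HYOU1), chr19:12938374-12938412 on the plus strand (CALR), chr5:179698768-179698806 on the plus strand (CANX), chr22:49918544-49918582 on the plus strand (CRELD2), chr2:10812843-10812881 on the minus strand (PDIA6), chr22:28800593-28800631 on the minus strand (XBP1), chr22:21642104-21642134 on the plus strand (SDF2L1), chr16:56932015-56932045 on the plus strand (HERPUD1), chr2:182716122-182716149 on the plus strand (DNAJC10) and chr22:38468040-38468067 on the plus strand (KDELR3), all upstream of the annotated start and outside the transcript. HSP90B1 has an ERSE on each strand, and HYOU1 has a pair of ERSE-II matches, the first of which overlaps a TGACGTGG core. CRELD2 and CALR carry ERSE and SDF2L1 carries ERSE-II on the other strand, where they read as the reverse complement, as do the cores of DNAJC10 and KDELR3.

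Of the 11 members with ERSE or ERSE-II, 9 rose with DHT in control (median log2 fold change 0.92) and 4 in KO (median 0.52), and 3 were lower in KO in EtOH (median -0.55) and 7 in DHT (median -0.74). Of the 39 with a window and no element, 22 rose in control (median 0.61) and 14 in KO (median 0.52), and 5 were lower in KO in EtOH (median -0.30) and 8 in DHT (median -0.45). The background percentages for these comparisons are those given above, and no test was made between these lists. The 11 are largely chaperones (HSPA5, HSP90B1, HYOU1, CALR, CANX, SDF2L1 and CRELD2), so element and role were not separated. Members with only a TGACGTGG core are in neither list. The 2 without a DHT call in control among the 11 were CANX and XBP1. KDELR3, with a TGACGTGG core, had no DHT call in either line, and DNAJB9 and PDIA4, which rose in both lines, had none of the 3 elements in this window.

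Further genes of the same pathway, 58 listed of which 57 passed the count filter, gave a wider view. With DHT in control 22 rose and 0 fell (median 0.52), among them the ubiquitin-conjugating enzyme UBE2J1 (1.18), the membrane-bound factor CREB3L4 (1.13), the SNARE GOSR2 (0.97), the cargo receptor TMED9 (0.89) and SSR3 (0.85), a subunit of the translocon-associated complex. The others were SRPR (0.87), HSPA13 (0.85), PREB (0.84), DERL3 (0.82), DERL2 (0.78), SSR2 (0.75), EDEM2 (0.73), VCP (0.72), TMED1 (0.68), STX5 (0.68), SEC24C (0.67), MIA3 (0.67), PPIB (0.66), DNAJC1 (0.62), SEC11C (0.62), SEC61G (0.61) and SRP68 (0.59). In KO 8 rose and 0 fell (median 0.26), namely CREB3L4 (1.08), UBE2J1 (1.08), DNAJC1 (0.74), DERL3 (0.71), GOSR2 (0.67), SSR3 (0.66), HSPA13 (0.61) and SRPR (0.61). KO was lower than control for 6 in EtOH, DERL3 (-1.26), SSR3 (-0.73), DNAJC1 (-0.70), SEC61G (-0.64), SSR1 (-0.61) and SSR2 (-0.59), and for 10 in DHT, DERL3 (-1.37), SEC61G (-0.98), SSR3 (-0.92), SSR2 (-0.88), TMED9 (-0.87), PREB (-0.74), SEC11C (-0.72), ERO1A (-0.72), SSR1 (-0.65) and ERLEC1 (-0.62), with 0 higher in either. DERL3, a degradation channel component, had the largest KO difference of this list, with counts of 244 and 315 (vehicle) and 522 and 465 (DHT) in the control line, next to 119.8 and 114 (vehicle) and 189 and 192 (DHT) in the KO line. In FM, ERO1A, the oxidase paralogous to ERO1B, was the 1 lower in KO (-0.71). FM exceeded EtOH for 7 in control (12.3%, against 9.81% of all genes tested) and 11 in KO (19.3%, against 9.61%), with 0 lower. Of all genes tested, 6.04% rose with DHT in control and 4.43% in KO, and 2.31% and 3.32% were lower in KO in EtOH and DHT. Leaving out single libraries, control EtOH among them, moved these counts and also the share of all genes passing. The DERL3 call with DHT in KO was lost without either KO EtOH library (0.74 and 0.67) or without KO DHT replicate 2 (0.69). For KO against control in EtOH, SEC61G lost its call without control EtOH replicate 2 (-0.28) or either KO EtOH library (-0.71 and -0.58). With DHT in control, SEC61G and SEC11C lost theirs without control EtOH replicate 1 (0.32 and 0.37) or control DHT replicate 2 (0.27 and 0.37). Other calls of this list changed as well. Without control EtOH replicate 1, SEC61G had 0.32 with DHT in control and TMED9 -0.77 for KO against control in EtOH. SIL1 had -0.77 there for FM against EtOH in control. Without replicate 2, COPE had 0.84 with DHT in control and SSR2 -0.38 for KO against control in EtOH. Without control DHT replicate 1, DERL2 had -0.67 for KO against control in DHT. GOSR2 fell to 0.57 with DHT in KO without KO EtOH replicate 2. SSR3 fell to 0.57 for FM against EtOH in control without control FM replicate 2.

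The ATF4 arm, which PERK and other kinases switch on through translation, was read from 6 genes. For comparison, 6.04% of all genes tested rose with DHT in control. The share of all genes lower in KO was 3.32% under DHT and 2.31% with vehicle. FM lay below EtOH for 11.5% of all genes tested in control and 9.68% in KO. The 6 genes are a small chosen list that was not tested as a set, so the numbers passing are descriptions only. With DHT in control 3 rose, DDIT3 (0.68 ± 0.17 (SE, adjusted p = 0.000856)), PPP1R15A (0.83 ± 0.20 (SE, adjusted p = 0.000402)) and CHAC1 (0.70 ± 0.20 (SE, adjusted p = 0.00426)), and in KO 0 passed, with values of -0.09 to 0.22. The calls of DDIT3 and CHAC1 were lost without control EtOH replicate 1 (0.46 and 0.44) or control DHT replicate 2 (0.53 and 0.67), leaving 1, and TRIB3 passed too without control EtOH replicate 2 (0.62). The interaction called 0 of the 6, with a median of -0.48, and 1, DDIT3 (-0.96, adjusted p = 0.00351), without control EtOH replicate 2. In DHT all 6 were lower in KO, with CHAC1 (-1.38), DDIT3 (-1.06), ASNS (-0.88), PPP1R15A (-0.76), ATF4 (-0.70) and TRIB3 (-0.61), the calls of PPP1R15A and TRIB3 being lost without control DHT replicate 2 or KO DHT replicate 1. DDIT3, the stress-induced factor CHOP, had counts of 636 and 876 with vehicle and 1093 and 1327.5 with DHT in control cells, and 624 and 567.5 with vehicle and 538 and 625.5 with DHT in KO cells, and CHAC1, a glutathione-degrading enzyme, 206.5 and 304 (vehicle) and 406 and 422 (DHT) in the control line, next to 149 and 154 (vehicle) and 144 and 176 (DHT) in the KO line. For both genes the KO DHT libraries lay below every control DHT and every control EtOH library. In EtOH, CHAC1 (-0.75) and ASNS, asparagine synthetase (-0.70), were lower in KO, and in FM 0 were. In EtOH 0 passed without control EtOH replicate 2 (CHAC1 -0.44, ASNS -0.58), ATF4 passed as well without control EtOH replicate 1 (-0.68) or KO EtOH replicate 1 (-0.59), and the CHAC1 call was lost without either KO EtOH library. Against EtOH, FM was lower for DDIT3, PPP1R15A and CHAC1 in control (-1.15, -0.71 and -0.65) and for DDIT3 in KO (-0.70), the opposite sign to ERN1 in the same contrast. In control DDIT3 alone passed without control FM replicate 2 or control EtOH replicate 2, and CHAC1 did not without control FM replicate 1.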

How the data were processed

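Poly(A) RNA of 12 LNCaP libraries (TruSeq stranded kit) was sequenced on an Illumina HiSeq instrument. Per the labels and the submitters' processing notes, the authors mapped reads to GRCh37 with TopHat2 (2.0.11; CASAVA 1.7 for base calls) and used HTSeq (0.5.3p3) to count reads for each Ensembl gene. The deposited values are these raw counts, not normalized. The strand setting and Ensembl release are not given in the sources used here. Tallies of unassigned or non-unique reads, 26.9% to 31.5% of a library's total, were left out.

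Symbols and positions came from a GENCODE annotation on GRCh37. Genes with a summed count under 10 were left out, which kept 26156. DESeq2 (1.42.0, R 4.3.3; the study's methods name DESeq2) was fitted to all 12 samples, a coefficient per group, with Wald tests, unshrunken log2 fold changes and Benjamini-Hochberg adjusted p over all genes tested. A gene passed at an adjusted p of at most 0.05 and a fold change of at least 1.5. Counts totalled 20826843 to 30354666 per library, at which 3 counts equal 0.0988 to 0.144 CPM, a floor that covers counting error only. The 95% intervals are Wald intervals that include the fitted spread between replicates. Replicates differed beyond sampling noise (chi-square per degree of freedom 3.19 to 36.5). The procedure was tested on simulated data.

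The members and lists were chosen with earlier results of these data known. Named were BAG1, 12 fixed members in every comparison, and each member past the threshold (the 15 with the largest absolute log2 fold change where more than 25 passed). In places a member outside this rule is named to describe its group. Alternatives were edgeR's quasi-likelihood test (4.0.16) with TMM normalization, TMM size factors, other filters, a replicate block, only the groups compared, no fold minimum, thinned counts and each library left out.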

Additional observations from a re-analysis of the deposited data

How the results depend on the processing

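Over the alternatives, the number of members past the threshold stayed within 1.5 times the reported count in 87 of 100 cases, and every alternative kept the direction of the members called in DHT and KO comparisons. Without a fold change minimum the counts were 39 for DHT in KO, 29 for KO against control in EtOH, 42 in DHT and 23 in FM. They were 35 and 41 for FM against EtOH in control and KO. In these last 2 comparisons 6478 and 5887 of the 18549 genes tested had an adjusted p at or under 0.05. This setting by construction admits smaller changes. Thinning to the smallest library gave 2 members for KO against control in FM. Leaving out a library gave 31 to 37 members for DHT in control, 19 to 21 for DHT in KO, 0 to 4 for the difference in response, 10 to 17, 16 to 24 and 1 to 5 for KO against control in EtOH, DHT and FM, and 6 to 17 and 17 to 20 for FM against EtOH in control and KO. The share of all genes passing also moved between these fits, so the ranges do not describe the members alone. When a library is left out, the lone sample of its group is assumed to vary like the others. edgeR gave 32, 23, 0, 11, 19, 1, 9 and 20 members in the same order of comparisons as below.

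With the replicate block the counts were 34 for DHT in control, 19 for DHT in KO, 0 for the difference, 11, 19 and 1 for KO against control in EtOH, DHT and FM, and 9 and 19 for FM against EtOH in control and KO. The labels give the replicate numbers no shared origin. Over 15 pairs of groups, the deviations of same-numbered samples correlated at -0.415 to 0.692 (mean 0.033, 8 above 0). They did not deviate together across all groups, but the highest value shows that some groups did. Between control EtOH and control DHT, HSP90B1 was higher in replicate 2 of both and COPA lower in both, while DNAJC10 moved in opposite directions. A block shared by all groups does not take up such a link, and pairing within single groups was not tested. Of 1630 fold changes of named members under an alternative, 34 lost and 22 gained a call, and none past the threshold in either fit changed sign; 24 values that passed in neither fit did, none above 0.62 in absolute size. The cause of these changes was not tested. With 2 samples a group, a small difference between the lines' responses is hard to detect.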
